A study of Homo sapiens with 9 samples.

Results

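The SIN3B-type complex and its KDM5 partners were followed here as 9 genes of 58734 in the count table: PHF12, MORF4L1, MORF4L2, KDM5A, KDM5B, KDM5C, EMSY, GATAD1 and SINHCAF. They were chosen by symbol as listed subunits, with Ensembl gene IDs matched to GENCODE 29 symbols, and all 9 passed the low-count filter. The choice was made with earlier results of these data known, so the shares called below are not those of a list chosen blind. Poly-A RNA was sequenced from HEK293T, a line of human embryonic kidney origin that expresses SV40 large T antigen, with 3 libraries in each of 3 groups. The groups were cells given siRNA against SIN3A, cells given siRNA against SIN3B and cells given a control siRNA, each at 10 nM with a lipid reagent for 36 h. The sample titles give the groups, whereas the treatment text is the same for all 9 samples and names only the control siRNA, so the levels of SIN3A and SIN3B below serve as the check of the titles. All groups thus share the transfection, the cells are 1 line, and the knockdowns are partial. Whether the libraries of a group are separate transfections is not stated, and the spread behind each p-value may therefore be only technical.

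SIN3A and SIN3B are paralogous scaffolds that hold the histone deacetylases HDAC1 and HDAC2, and they nucleate complexes of different makeup. The SIN3B-type complex holds the PHD finger protein PHF12 and the chromodomain protein MORF4L1 (MRG15), which binds methylated lysine 36 of histone H3, and it has been found over transcribed genes and at promoters. The KDM5 enzymes are lysine demethylases that remove methyl groups from H3K4, a mark of active promoters, and they have been isolated together with SIN3B, PHF12, EMSY and GATAD1. SINHCAF (FAM60A) is a subunit of SIN3/HDAC complexes, mostly described with SIN3A.

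The main finding across the 9 genes was a difference between the knockdowns rather than a shared change. In SIN3A knockdown cells 2 of the 9 genes rose (KDM5B and EMSY) and 2 fell (MORF4L2 and GATAD1) against control, and in SIN3B knockdown cells 3 rose (MORF4L1, MORF4L2 and KDM5A) and 1 fell (KDM5B). When the knockdowns were set against each other, 7 of 9 differed: KDM5B, EMSY and SINHCAF were higher in SIN3A knockdown cells, and MORF4L1, MORF4L2, KDM5A and GATAD1 were lower there. PHF12 and KDM5C passed the test in none of the 3 comparisons. Calls are edgeR quasi-likelihood tests with Benjamini-Hochberg adjusted p under 0.05 over all 16686 genes tested.

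Many genes changed in these cells, so each count has to be read beside the share of all genes called. In SIN3A knockdown against control 22.7% of genes tested were called (12.0% higher and 10.8% lower), beside 4 of the 9. In SIN3B knockdown against control 23.6% were called (12.0% higher and 11.6% lower), also beside 4 of 9. In SIN3A against SIN3B knockdown 27.1% were called (14.4% higher and 12.6% lower), beside 7 of 9. Among 15 SIN3 core and SIN3A-type subunits other than SIN3A and SIN3B, 60% were called there, so the difference is not particular to the 9 genes. The changes were small. The median absolute log2 fold change of the 9 genes was 0.20 in SIN3A knockdown and 0.20 in SIN3B knockdown against control, where all tested genes had 0.26 and 0.25. Between the knockdowns it was 0.39 for the 9 genes and 0.28 for all tested genes. All tested genes include ones just above the low-count filter, whereas the 9 genes had 37.5 CPM or more in every library. The shares and medians were not matched for level.

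Each targeted gene was lowest in the libraries titled for its knockdown. SIN3A was at 44.9, 49.9 and 47.0 CPM in SIN3A knockdown libraries, against 141, 147 and 149 CPM in control libraries, so 32.5% of the control mean remained. SIN3B was at 59.2, 53.8 and 52.3 CPM in SIN3B knockdown libraries, against 100.4, 97.1 and 91.1 CPM in control libraries, which left 57.3%. CPM here are counts relative to the library size after scaling by trimmed mean of M-values (TMM), and library totals ran from 22542798 to 27084884 counts. All 8 genes listed as markers of the HEK293 line (among them VIM, NEFM and PAX2) were detected in all 9 libraries. Their sum was 1191 to 1458 CPM in SIN3A knockdown, 1098 to 1165 CPM in SIN3B knockdown and 1394 to 1536 CPM in control libraries, and 3 of the 8 fell and 0 rose in each knockdown. Their part in the results on the 9 genes was not tested. PTPRC, a defining gene of blood cells, and DCN, of fibroblasts, had no count in any of the 9 libraries. COL1A1 and COL3A1, listed as fibroblast markers with DCN, were detected in all 9, at 22.8 to 34.9 CPM and 1.10 to 2.97 CPM. COL1A1 was called higher in SIN3A knockdown than in control cells (0.39, edgeR adjusted p = 0.033). The 7 markers of other cell types summed to 26.3 to 37.6 CPM in SIN3A knockdown, 25.1 to 29.9 CPM in SIN3B knockdown and 26.0 to 27.3 CPM in control libraries, nearly all of it COL1A1.

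The pair KDM5A and KDM5B and the pair EMSY and GATAD1 each differed between the knockdowns in opposite directions. The start regions of these 4 genes are shown first, although MORF4L1, MORF4L2 and SINHCAF also differed between the knockdowns. Each sequence runs from 250 bases before to 50 bases after the RefSeq gene start (GRCh38.p14), 5′ to 3′ on the strand of the gene, and capitals mark matches on either strand to GGGCGG (a GC box of SP and KLF factors), CACGTG (the E-box of MYC, MAX and MXD proteins), CCGGAAG (ETS factors) and TTTCCCGC or TTTGGCGC (E2F factors). KDM5B lies at chr1:202808372-202808671 on the minus strand, EMSY at chr11:76444768-76445067 on the plus strand, KDM5A at chr12:389271-389570 on the minus strand and GATAD1 at chr7:92447232-92447531 on the plus strand.
KDM5B: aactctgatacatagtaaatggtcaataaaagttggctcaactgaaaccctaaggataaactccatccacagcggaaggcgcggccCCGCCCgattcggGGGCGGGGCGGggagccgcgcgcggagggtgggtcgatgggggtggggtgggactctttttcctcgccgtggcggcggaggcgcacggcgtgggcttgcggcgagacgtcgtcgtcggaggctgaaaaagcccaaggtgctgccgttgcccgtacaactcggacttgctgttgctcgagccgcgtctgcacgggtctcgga
EMSY: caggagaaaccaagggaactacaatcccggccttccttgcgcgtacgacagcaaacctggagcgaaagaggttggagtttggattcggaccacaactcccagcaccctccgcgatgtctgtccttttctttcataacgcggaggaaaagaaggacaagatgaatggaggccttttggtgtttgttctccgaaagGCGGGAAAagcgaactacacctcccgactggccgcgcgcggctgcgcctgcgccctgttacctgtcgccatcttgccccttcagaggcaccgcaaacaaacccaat
KDM5A: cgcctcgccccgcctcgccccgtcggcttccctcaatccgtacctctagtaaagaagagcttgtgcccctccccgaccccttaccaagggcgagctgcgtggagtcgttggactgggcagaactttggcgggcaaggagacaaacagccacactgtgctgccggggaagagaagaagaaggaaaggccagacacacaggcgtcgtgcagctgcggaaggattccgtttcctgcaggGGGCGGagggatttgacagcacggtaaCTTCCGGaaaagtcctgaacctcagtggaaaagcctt
GATAD1: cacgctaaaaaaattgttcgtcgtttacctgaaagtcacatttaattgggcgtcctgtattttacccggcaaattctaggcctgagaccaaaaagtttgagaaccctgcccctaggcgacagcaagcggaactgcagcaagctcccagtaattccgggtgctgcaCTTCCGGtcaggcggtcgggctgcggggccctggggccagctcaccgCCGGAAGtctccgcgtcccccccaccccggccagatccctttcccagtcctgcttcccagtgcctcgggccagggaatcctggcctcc

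The window of KDM5B held 3 GC boxes, that of EMSY 1 E2F match, that of KDM5A 1 GC box and 1 ETS match, and that of GATAD1 2 ETS matches. Among 35116 RefSeq windows of the same length, 45.0% held the GC box, 10.3% the ETS letters, 7.26% the E-box and 2.27% either E2F form. The E-box was in none of the windows of the 8 genes that had an entry (of 9, MORF4L2 had none). The 4 windows had a GC content of 63.7% (KDM5B), 56.0% (EMSY), 60.0% (KDM5A) and 59.7% (GATAD1). These matches describe the letters only and were not tested against the expression values.

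Of the 3 KDM5 genes, KDM5B and KDM5A differed between the knockdowns and KDM5C did not pass the test. KDM5B (PLU-1; ENSG00000117139, chromosome 1, 202724495 to 202809470, minus strand, GRCh38) is a demethylase of H3K4 that is abundant in many cancer lines. It was at 130, 152 and 127 CPM in SIN3A knockdown libraries, 74.7, 75.9 and 85.8 CPM in SIN3B knockdown libraries, and 108, 96.7 and 99.2 CPM in control libraries. The 3 groups did not overlap, with control between the knockdowns. Its log2 fold change against control was 0.43 ± 0.09 in SIN3A knockdown (SE of the fit, edgeR quasi-likelihood adjusted p = 0.0015) and -0.36 ± 0.09 in SIN3B knockdown (edgeR adjusted p = 0.0045). Set directly against SIN3B knockdown, SIN3A knockdown cells had 1.73-fold more KDM5B (log2 fold change 0.79 ± 0.09, edgeR adjusted p = 1.5e-06). All 3 KDM5B calls held in each of the 20 other settings run.

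KDM5A (RBP2; ENSG00000073614, chromosome 12, 280129 to 389454, minus strand), a KDM5 enzyme first found as a partner of the retinoblastoma protein, took the opposite course. It was at 53.5, 56.7 and 49.4 CPM in SIN3A knockdown libraries, 72.1, 80.5 and 81.0 CPM in SIN3B knockdown libraries, and 58.0, 63.7 and 67.1 CPM in control libraries. Again the 3 groups did not overlap, with control in between. The log2 fold change was 0.31 ± 0.09 in SIN3B knockdown against control (edgeR adjusted p = 0.015). In SIN3A knockdown against control it was -0.24 ± 0.09 and just missed the threshold (edgeR adjusted p = 0.056). The knockdowns differed from each other by -0.55 ± 0.09 (edgeR adjusted p = 0.00012), which held in each of the 20 other settings. The calls against control were less firm. The SIN3B knockdown call was lost in 7 of the 20 settings: with limma on both FPKM scales (adjusted p of 0.0508 and 0.0509), once corrected for base composition and exon length (0.227, edgeR adjusted p = 0.0574), without control replicates 1 and 2 (log2 fold changes of 0.251 and 0.303, edgeR adjusted p of 0.0956 and 0.0557) and without SIN3B knockdown replicates 2 and 3 (0.283 and 0.278, edgeR adjusted p of 0.0767 and 0.0797). KDM5A passed as lower in SIN3A knockdown than in control cells in 6 of the 20 settings, at -0.238 with DESeq2, -0.256 with counts divided by 4, -0.273 with library totals only, -0.311 with upper-quartile factors, -0.270 with that correction and -0.290 without SIN3A knockdown replicate 2 (adjusted p of 0.0170 to 0.0457). It also overlaps CCDC77 on the opposite strand by 182 exonic bases. CCDC77 averaged 37.1 CPM in SIN3A knockdown, 44.7 CPM in SIN3B knockdown and 34.5 CPM in control libraries, and reads from this overlap are uncertain, since no source says whether counting used the strand.

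KDM5C (ENSG00000126012, X chromosome, 53191321 to 53225422, minus strand), an H3K4 demethylase whose loss causes an X-linked intellectual disability, had the highest level of the 3. It was at 231, 288 and 281 CPM in SIN3A knockdown libraries, 255, 252 and 258 CPM in SIN3B knockdown libraries, and 281, 289 and 295 CPM in control libraries. SIN3B knockdown libraries lay below all control libraries, and SIN3A knockdown libraries overlapped control. The log2 fold change was -0.18 ± 0.08 in SIN3B knockdown (edgeR adjusted p = 0.10) and -0.11 ± 0.08 in SIN3A knockdown (edgeR adjusted p = 0.31). The 95% interval of the difference between the knockdowns ran from -0.09 to 0.22. SIN3A knockdown replicate 1 was the lowest of its group. KDM5C passed as lower in SIN3B knockdown than in control cells in 3 of the 20 settings, without that library (-0.171, edgeR adjusted p = 0.0071), in the fit of the 6 libraries compared (-0.177, edgeR adjusted p = 0.0027) and under upper-quartile scaling (-0.218, edgeR adjusted p = 0.0435). Without that library it also passed as higher in SIN3A than in SIN3B knockdown cells (0.168, edgeR adjusted p = 0.0164). Over the 20 settings the KDM5C value in SIN3B knockdown against control ran from -0.218 to -0.038.

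**Figure D1:**
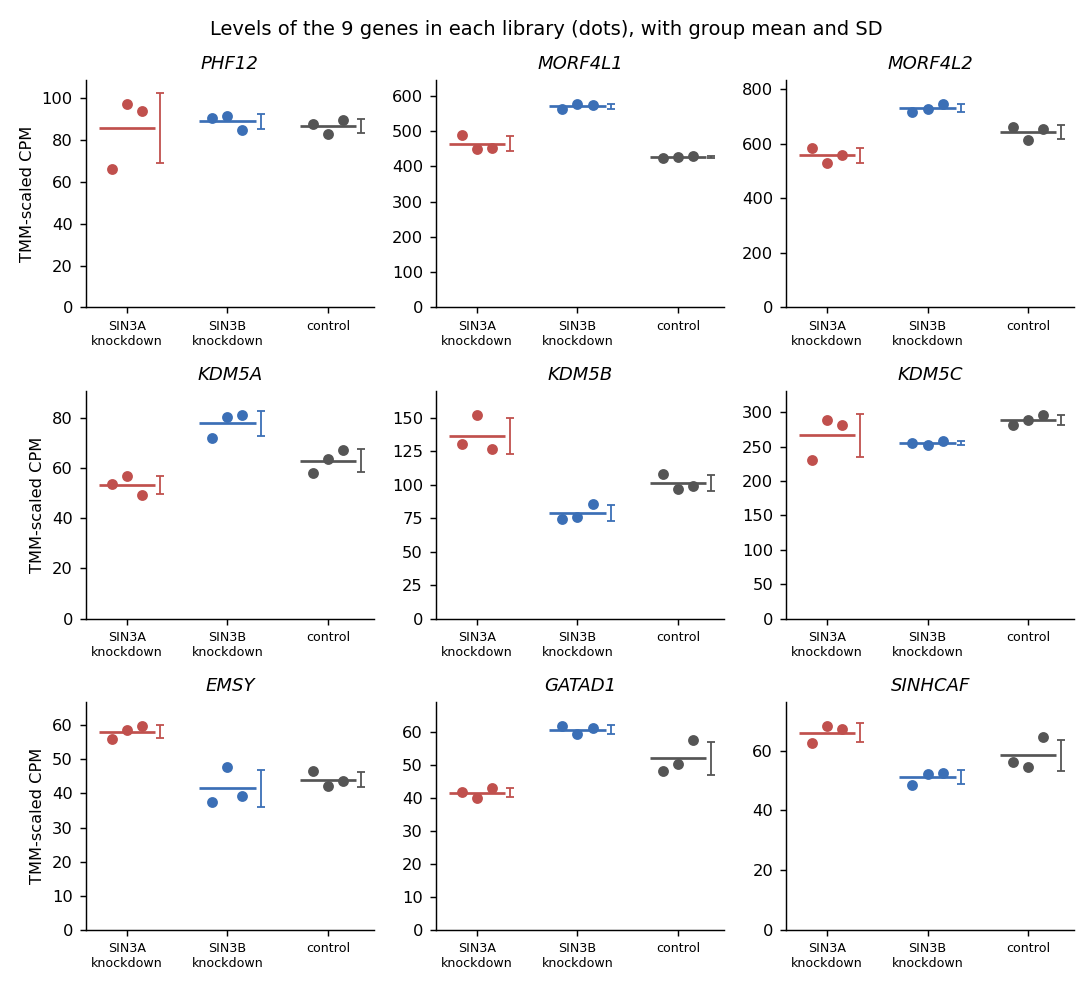
TMM-scaled CPM (y axes, from 0, on a scale of their own per gene) of the 9 genes in each library (dots), with lines for the group means and bars for the SD over 3 libraries of SIN3A knockdown, SIN3B knockdown and control cells. KDM5B lies between 127 and 152 CPM in SIN3A knockdown libraries and between 74.7 and 85.8 CPM in SIN3B knockdown libraries, and KDM5A, MORF4L2 and GATAD1 stand the other way round.

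Within a library, the ratio of KDM5B to KDM5A counts does not depend on the scaling between libraries, and gene length cancels when groups are compared. The ratio was 2.44, 2.68 and 2.57 in SIN3A knockdown libraries, 1.04, 0.943 and 1.06 in SIN3B knockdown libraries, and 1.86, 1.52 and 1.48 in control libraries. It averaged 2.56 ± 0.12, 1.01 ± 0.06 and 1.62 ± 0.21 (SD, n = 3 each), in that order of groups, and no library of one group reached into another. The ratio of KDM5B to KDM5C averaged 0.515 ± 0.058 in SIN3A knockdown, 0.309 ± 0.021 in SIN3B knockdown and 0.352 ± 0.028 in control libraries. Every SIN3A knockdown library was above the other 6, and SIN3B knockdown libraries (0.293, 0.301 and 0.333) lay just below control libraries (0.385, 0.335 and 0.336). These ratios were formed after the values were seen and are given without a test.

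Levels of different genes can be compared only per length. Over the length of the longest annotated transcript, KDM5C held most of the summed level of the 3 KDM5 genes, at 70.6% ± 2.5 in SIN3A knockdown, 73.8% ± 1.1 in SIN3B knockdown and 75.1% ± 0.6 in control libraries (SD, n = 3 each). The KDM5B share was 21.4% ± 1.7 in SIN3A knockdown, 13.4% ± 0.7 in SIN3B knockdown and 15.6% ± 1.1 in control libraries. KDM5A had 8.03% ± 0.86, 12.8% ± 0.7 and 9.28% ± 0.52 in the same groups. The sum of the 3 genes was 61.8 ± 6.0, 56.7 ± 1.3 and 63.0 ± 1.2 CPM per kilobase in those groups. Over all annotated exons joined, a length that for KDM5B is 25882 bases and not 10341, the KDM5B share came to 13.1%, 7.86% and 9.29%, so the size of the shares depends on the length used, while the order of the groups is the same for KDM5B and KDM5A. For KDM5C it is not: its share over joined exons was 75.8%, 75.5% and 78.4%.

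**Figure D2:**
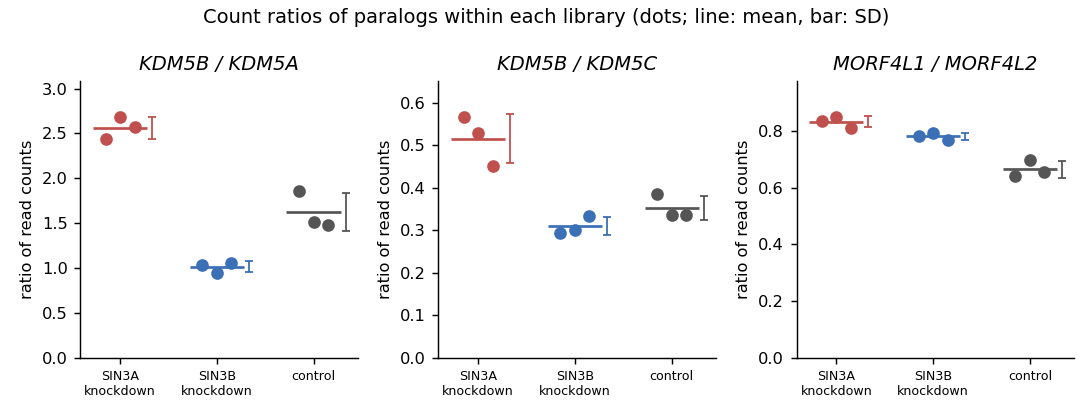
Ratios of read counts (y axes, from 0) of KDM5B to KDM5A, KDM5B to KDM5C and MORF4L1 to MORF4L2 in each library (dots), with the group mean (line) and SD over 3 libraries (bar). KDM5B to KDM5A is above 2.4 in SIN3A knockdown libraries and at most 1.06 in SIN3B knockdown libraries, and MORF4L1 to MORF4L2 is above the control libraries in both knockdowns.

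The MRG proteins MORF4L1 and MORF4L2 (MRGX) are close paralogs, and of both only MORF4L1 has the chromodomain. They are shared with the TIP60 acetyltransferase complex. MORF4L1 (ENSG00000185787, chromosome 15, 78810487 to 78898133, plus strand) was at 489, 449 and 453 CPM in SIN3A knockdown libraries, 562, 576 and 573 CPM in SIN3B knockdown libraries, and 423, 428 and 428 CPM in control libraries. The 3 groups did not overlap, and both knockdowns lay above control. MORF4L1 rose in SIN3B knockdown cells by 0.42 ± 0.06 on the log2 scale (edgeR adjusted p = 6.4e-05), the lowest adjusted p of the 9 genes against control. In SIN3A knockdown cells the log2 fold change was 0.12 ± 0.06 (edgeR adjusted p = 0.16). The SIN3A knockdown was lower than the SIN3B knockdown by -0.30 ± 0.06 (edgeR adjusted p = 0.0010). The rise in SIN3B knockdown and the difference between knockdowns held in each of the 20 other settings. Over these settings the size of the rise ran from 0.287 to 0.427.

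MORF4L2 (ENSG00000123562, X chromosome, 103675496 to 103688158, minus strand) moved in opposite directions. It was at 584, 529 and 559 CPM in SIN3A knockdown libraries, 717, 728 and 745 CPM in SIN3B knockdown libraries, and 661, 614 and 653 CPM in control libraries, without overlap between groups. Its log2 fold change was -0.20 ± 0.06 in SIN3A knockdown (edgeR adjusted p = 0.021) and 0.18 ± 0.06 in SIN3B knockdown (edgeR adjusted p = 0.036). The difference between the knockdowns, -0.39 ± 0.06 (edgeR adjusted p = 0.00010), held in each of the 20 other settings, and the calls against control did not. In SIN3A knockdown the call was lost without control replicates 1 and 3 (-0.184 and -0.180, edgeR adjusted p of 0.0931 and 0.108) and without SIN3A knockdown replicate 2 (-0.169, edgeR adjusted p = 0.0828). In SIN3B knockdown it was lost without any 1 of the 6 libraries compared: log2 fold changes were 0.204, 0.139 and 0.198 without control replicates 1, 2 and 3, and 0.180, 0.186 and 0.169 without SIN3B knockdown replicates 1, 2 and 3, with edgeR adjusted p of 0.0617 to 0.182. Corrected for GC content and exon length, the SIN3B knockdown value was 0.063 (edgeR adjusted p = 0.455), and upper-quartile scaling (0.145, edgeR adjusted p = 0.112) and limma on both FPKM scales (adjusted p of 0.0510 and 0.0533) also lost that call. The SIN3A knockdown call was lost in the fit of the 6 libraries compared (-0.207, edgeR adjusted p = 0.0687).

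The ratio of MORF4L1 to MORF4L2 counts averaged 0.832 ± 0.019 in SIN3A knockdown, 0.781 ± 0.012 in SIN3B knockdown and 0.664 ± 0.029 in control libraries, and all knockdown libraries were above all control libraries. Per kilobase of longest transcript MORF4L2 had the highest level of the 9 genes in every group, at 281 ± 14, 368 ± 7.1 and 324 ± 13 CPM per kilobase in SIN3A knockdown, SIN3B knockdown and control libraries. MORF4L1 was next at 197 ± 9.1, 242 ± 3.3 and 181 ± 1.1. Reads of paralogs and of processed copies can be divided by the counting, and its treatment of reads that map to several places is not given. The 6 annotated MORF4L1 pseudogenes summed to at most 0.442 CPM in any library, the MORF4L2 pseudogene was at 0, and the antisense transcript MORF4L2-AS1, which shares 170 exonic bases with MORF4L2, had 0.486% of the MORF4L2 level.

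PHF12 (Pf1; ENSG00000109118, chromosome 17, 28905250 to 28951771, minus strand), the PHD finger subunit that bridges SIN3 and MORF4L1, did not pass the test in either knockdown. It was at 66.2, 97.0 and 93.7 CPM in SIN3A knockdown libraries, 90.3, 91.3 and 84.8 CPM in SIN3B knockdown libraries, and 87.4, 82.8 and 89.4 CPM in control libraries. The groups overlapped, and SIN3A knockdown replicate 1 was the lowest of the 9 libraries. The log2 fold change was -0.01 in SIN3A knockdown (95% interval -0.24 to 0.21, edgeR adjusted p = 0.95) and 0.04 in SIN3B knockdown (-0.19 to 0.26, edgeR adjusted p = 0.86). Without SIN3A knockdown replicate 1 the SIN3A knockdown value was 0.158 (edgeR adjusted p = 0.12), and 0 of 20 other settings called PHF12 in any comparison.

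EMSY and GATAD1, which have been found in 1 assembly with the KDM5 enzymes and PHF12, changed in opposite directions. EMSY (ENSG00000158636, chromosome 11, 76444923 to 76553025, plus strand) is a nuclear protein with an ENT domain. It was at 55.9, 58.7 and 59.7 CPM in SIN3A knockdown libraries, 37.5, 47.8 and 39.2 CPM in SIN3B knockdown libraries, and 46.6, 42.1 and 43.6 CPM in control libraries. All SIN3A knockdown libraries were above the other 6, whereas SIN3B knockdown and control overlapped. EMSY rose in SIN3A knockdown cells by 0.40 ± 0.10 (edgeR adjusted p = 0.0064) and was at -0.09 ± 0.10 in SIN3B knockdown cells (edgeR adjusted p = 0.60). The knockdowns differed by 0.49 ± 0.10 (edgeR adjusted p = 0.0010). Both calls held in each of the 20 other settings.

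GATAD1 (ODAG; ENSG00000157259, chromosome 7, 92447448 to 92459432, plus strand) is a GATA-type zinc finger protein. It was at 41.8, 40.1 and 42.9 CPM in SIN3A knockdown libraries, 61.7, 59.3 and 61.1 CPM in SIN3B knockdown libraries, and 48.0, 50.3 and 57.6 CPM in control libraries. The 3 groups did not overlap, with control in between. GATAD1 fell in SIN3A knockdown cells by 0.32 ± 0.09 (edgeR adjusted p = 0.015), and in SIN3B knockdown cells it was at 0.22 ± 0.09 (edgeR adjusted p = 0.076). The knockdowns differed by -0.55 ± 0.09 (edgeR adjusted p = 0.00015), and this held in each of the 20 other settings. Control replicate 3 was the highest of its group. Without it the fall in SIN3A knockdown was no longer called (-0.227, edgeR adjusted p = 0.128) and a rise in SIN3B knockdown was (0.308, edgeR adjusted p = 0.0387). Without SIN3A knockdown replicate 1 the SIN3B knockdown value was also called (0.233, edgeR adjusted p = 0.0416), as it was in the fit of the 6 libraries compared (0.227, edgeR adjusted p = 0.0245) and with the offsets for base content and length (0.259, edgeR adjusted p = 0.0229). Over the 20 settings this value ran from 0.170 to 0.308, and it was called in 4 of them.

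SINHCAF (ENSG00000139146, chromosome 12, 31280584 to 31327058, minus strand), the subunit tied mainly to SIN3A, was at 62.4, 68.1 and 67.4 CPM in SIN3A knockdown libraries, 48.4, 52.2 and 52.5 CPM in SIN3B knockdown libraries, and 56.3, 54.6 and 64.4 CPM in control libraries. SIN3A knockdown libraries overlapped control, and SIN3B knockdown libraries lay below both groups. Neither comparison with control passed, at 0.18 ± 0.09 in SIN3A knockdown (edgeR adjusted p = 0.17) and -0.20 ± 0.09 in SIN3B knockdown (edgeR adjusted p = 0.12). The knockdowns differed from each other by 0.37 ± 0.09 (edgeR adjusted p = 0.0038), as in each of the 20 other settings. Corrected for GC content and exon length, SINHCAF passed as lower in SIN3B knockdown cells (-0.360, edgeR adjusted p = 0.0030). That was 1 of the 20 settings, over which this value ran from -0.360 to -0.118. In such bulk RNA a smaller number of cells of one kind and less RNA per cell cannot be told apart, which holds for all 9 genes.

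**Figure D3:**
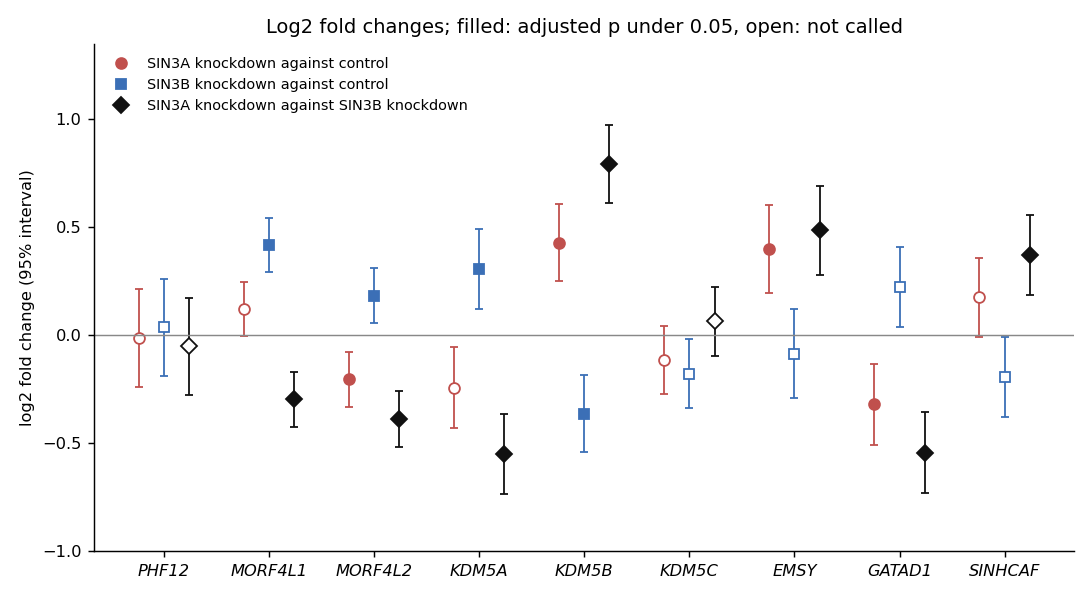
Log2 fold changes (y axis) with 95% intervals of the 9 genes in SIN3A knockdown against control (circles), SIN3B knockdown against control (squares) and SIN3A against SIN3B knockdown (diamonds), with filled marks for edgeR adjusted p under 0.05 and open marks for the rest. In the direct comparison 7 of 9 are filled, from -0.55 for KDM5A to 0.79 for KDM5B.

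The comparisons with control share the same 3 control libraries, so their values are set side by side and were not correlated. Per kilobase of longest transcript in control libraries, MORF4L2 (324 ± 13 CPM per kilobase), MORF4L1 (181 ± 1.1), KDM5C (47.3 ± 1.2), SINHCAF (18.5 ± 1.7), GATAD1 (13.1 ± 1.3), PHF12 (11.3 ± 0.4) and KDM5B (9.80 ± 0.58) followed each other, with EMSY (6.44 ± 0.33) and KDM5A (5.85 ± 0.43) last. The ranges of EMSY and KDM5A overlapped, and those of the other neighbours did not. Over joined exons KDM5A (5.21 ± 0.38 CPM per kilobase) ranked above KDM5B (3.92 ± 0.23) and EMSY (3.74 ± 0.19). Joined exons lengthen KDM5A to 12091 bases, against 10763 in its longest transcript, and EMSY to 11783 bases, against 6848, beside the KDM5B lengths given above.

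An siRNA can lower other mRNAs through matches to its seed in their 3′ UTRs. The siRNA sequences are not in the sources used here, so 7-base sequences were ranked on these data. The rank was by a t statistic of carriers against other genes, with log2 fold changes first adjusted for UTR length and GC content. Sequences carried by few genes were left out. Among the annotated 3′ UTRs of 10969 expressed genes, the lowest t statistics were those of GGTCTAA and AGGTCTA in SIN3A knockdown, and ACAGCCT and CAGCCTT in SIN3B knockdown. Either of the first pair stood in 7.78% of these UTRs and either of the second pair in 24.6%. The 853 genes with one of the first pair had a median log2 fold change of -0.07 in SIN3A knockdown, against 0.05 in genes without. The 2701 genes with one of the second pair had a median of -0.06 in SIN3B knockdown, against 0.03 in genes without. Both pairs were picked for low values of their carriers in these same comparisons. The lower medians therefore follow from the choice and are no test of a seed effect. In the chosen transcript of each of the 9 genes, KDM5A held 1 copy of the first pair, and none held the second pair. The KDM5A site is shown because it is the 1 match found in the chosen 3′ UTRs of the 9 genes, and KDM5A itself was not called in SIN3A knockdown against control. It lies at chr12:281299-281327 on the minus strand (GRCh38), and capitals mark the 7 bases.
KDM5A: gtactccaagtGGTCTAAacaggaatgtc
Whether this copy bears on the KDM5A value was not tested. Of all annotated coding transcripts with a 3′ UTR, 1 of 13 of KDM5B and 1 of 3 of PHF12 held a copy of the second pair there.

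The surrounding complexes were described from lists of genes. Of 15 SIN3 core and SIN3A-type subunits other than SIN3A and SIN3B, 9 rose and 1 fell in SIN3A knockdown, and 5 rose and 2 fell in SIN3B knockdown. Their median log2 fold changes were 0.29 and -0.02, against -0.00 and -0.02 for all genes tested. The share of the 15 called was 66.7% and 46.7%, against 22.7% and 23.6% of all genes tested. In SIN3A against SIN3B knockdown 7 of the 15 were higher and 2 lower, so 60% were called, against 27.1% of all genes tested. Their median absolute log2 fold change there was 0.46, against 0.39 for the 9 genes. RBBP4, a histone-binding chaperone, fell in SIN3A knockdown cells by 0.61 ± 0.06 (edgeR adjusted p = 1.6e-06), and ARID4A, a DNA-binding subunit, rose by 0.87 ± 0.11 (edgeR adjusted p = 2.4e-05). In SIN3B knockdown BRMS1L rose by 0.76 ± 0.11 (edgeR adjusted p = 0.00010) and SUDS3, the SDS3 homolog, fell by 0.49 ± 0.08 (edgeR adjusted p = 0.00014). Corrected for GC content and exon length, BRMS1L was at 0.464 (edgeR adjusted p = 0.00069).

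Of 16 subunits of the TIP60 acetyltransferase complex, which shares MORF4L1 and MORF4L2, 0 rose and 2 fell in SIN3A knockdown. In SIN3B knockdown 6 rose and 1 fell, with a median log2 fold change of 0.22. In SIN3A against SIN3B knockdown 2 of 16 were higher and 7 lower. The shares called were 12.5%, 43.75% and 56.25% in that order of comparisons, against 22.7%, 23.6% and 27.1% of all genes tested. ING3, a PHD finger subunit, rose in SIN3B knockdown to 31.9 ± 0.7 CPM, against 19.2 ± 0.2 CPM in control cells (0.73 ± 0.11, edgeR adjusted p = 0.00011), and EPC2 rose by 0.43 ± 0.10 (edgeR adjusted p = 0.0039). With the GC and length correction ING3 was at 0.388 (edgeR adjusted p = 0.0059) and EPC2 at 0.216, no longer called (edgeR adjusted p = 0.0862). The ATPase RUVBL1 fell by 0.33 ± 0.08 (edgeR adjusted p = 0.0046). The members that fell in SIN3A knockdown were KAT5, the acetyltransferase (-0.34 ± 0.09, edgeR adjusted p = 0.013), and EPC1 (-0.39 ± 0.11, edgeR adjusted p = 0.019). KAT5 lost the call with limma on both FPKM scales (adjusted p of 0.0545 and 0.0539) and when SIN3A knockdown replicate 3 or control replicates 2 or 3 were left out (-0.251, -0.297 and -0.325, edgeR adjusted p of 0.0583, 0.0675 and 0.0519). EPC1 lost it when SIN3A knockdown replicate 1 or control replicates 1 or 2 were left out (-0.289, -0.380 and -0.364, edgeR adjusted p of 0.0788, 0.0611 and 0.0736).

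Of 16 subunits of the H3K4 methyltransferase complexes, which write the mark that KDM5 enzymes remove, 3 rose and 2 fell in SIN3A knockdown and 5 rose and 0 fell in SIN3B knockdown. Their medians were 0.03 and 0.06, and 31.25% were called in each knockdown, against 22.7% and 23.6% of all genes tested. Between the knockdowns 2 were higher and 1 lower in SIN3A knockdown, so 18.75% were called, against 27.1% of all genes tested. WDR82, a subunit of the SETD1 complexes, rose in both, by 0.33 ± 0.07 in SIN3A knockdown (edgeR adjusted p = 0.0037) and 0.44 ± 0.07 in SIN3B knockdown (edgeR adjusted p = 0.00030). CXXC1, which binds unmethylated CpG, rose in SIN3A knockdown by 0.34 ± 0.08 (edgeR adjusted p = 0.0059). These calls held in each of the 20 other settings. The methyltransferase KMT2C was called in SIN3A knockdown (0.35 ± 0.11, edgeR adjusted p = 0.024) and in SIN3B knockdown (0.39 ± 0.11, edgeR adjusted p = 0.012), and DPY30 (0.44 ± 0.11) and RBBP5 (0.33 ± 0.09) in SIN3B knockdown. The KMT2C call in SIN3B knockdown was not followed over the other settings. In SIN3A knockdown KMT2C lost its call with upper-quartile factors and library totals only (0.278 and 0.322, edgeR adjusted p of 0.0623 and 0.0534), with limma on both FPKM scales (adjusted p of 0.122 and 0.120) and without SIN3A knockdown replicates 2 or 3 or control replicates 2 or 3 (0.343, 0.222, 0.353 and 0.302, edgeR adjusted p of 0.0535, 0.132, 0.0804 and 0.111). DPY30 lost it with the GC and length correction (0.235, edgeR adjusted p = 0.0607) and without control replicate 2 and SIN3B knockdown replicate 3 (0.363 and 0.357, edgeR adjusted p of 0.0632 and 0.0651), and RBBP5 without control replicate 2 and SIN3B knockdown replicate 2 (0.283 and 0.315, edgeR adjusted p of 0.0826 and 0.0560).

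Of 16 other histone lysine demethylases tested (of 17 listed), 1 rose and 3 fell in SIN3A knockdown and 0 rose and 3 fell in SIN3B knockdown, with medians of 0.03 and -0.08. The share called was 25% and 18.75%, against 22.7% and 23.6% of all genes tested. Between the knockdowns 6 were higher and 1 lower in SIN3A knockdown, so 43.75% were called, against 27.1% of all genes tested. PHF2 fell in SIN3A knockdown to 40.1 ± 4.9 CPM, against 58.2 ± 2.1 CPM in control cells (-0.54 ± 0.09, edgeR adjusted p = 0.00051), and KDM2A, an H3K36 demethylase, fell in SIN3B knockdown by 0.30 ± 0.07 (edgeR adjusted p = 0.0045). Both held in each of the 20 other settings, with KDM2A at -0.195 under the GC and length correction (edgeR adjusted p = 0.0225). KDM7A (0.34 ± 0.10) and KDM8 (-0.69 ± 0.18) were called in SIN3A knockdown, and KDM4C (-0.46 ± 0.13) and KDM2B (-0.27 ± 0.08) in SIN3B knockdown. Each of these 4 lost its call without single libraries. The call was also lost for KDM7A with upper-quartile factors (0.272, edgeR adjusted p = 0.0624), for KDM7A and KDM2B with the GC and length correction (0.205 and -0.103, edgeR adjusted p of 0.108 and 0.432), and for KDM8 and KDM2B with limma on log2(FPKM + 1) (-0.337 and -0.252, adjusted p of 0.109 and 0.0551) and on log2(FPKM + 0.1) (-0.634 and -0.267, adjusted p of 0.145 and 0.0536). KDM7A was at 0.359, 0.308, 0.366 and 0.278 when control replicates 1, 2 or 3 or SIN3A knockdown replicate 3 were left out (edgeR adjusted p of 0.0532, 0.0956, 0.0501 and 0.0770), and KDM8 at -0.530 without SIN3A knockdown replicate 3 (edgeR adjusted p = 0.0523). KDM4C was at -0.423 and -0.378 without control replicate 3 and SIN3B knockdown replicate 3 (edgeR adjusted p of 0.0552 and 0.0759). KDM2B was at -0.224, -0.258 and -0.274 without control replicate 3 and SIN3B knockdown replicates 2 and 3 (edgeR adjusted p of 0.110, 0.0790 and 0.0608).

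Of 8 other binding partners of MORF4L1, EMSY and PHF12, 1 rose and 0 fell in SIN3A knockdown and 2 rose and 0 fell in SIN3B knockdown. The share called was 12.5% and 25%, against 22.7% and 23.6% of all genes tested. Between the knockdowns 1 was higher and 2 lower in SIN3A knockdown, so 37.5% were called, against 27.1% of all genes tested. ASH1L, an H3K36 methyltransferase that binds MORF4L1, rose in SIN3B knockdown to 93.8 ± 7.8 CPM, against 65.2 ± 5.3 CPM in control cells (0.52 ± 0.10, edgeR adjusted p = 0.00060). Its value in SIN3A knockdown was 0.16 ± 0.10 (edgeR adjusted p = 0.24). BRCA2, a homologous recombination protein that binds EMSY, rose in SIN3B knockdown to 43.2 ± 7.6 CPM, against 21.6 ± 1.2 CPM in control cells (1.00 ± 0.14, edgeR adjusted p = 4.7e-05). The BRCA2 and ASH1L calls held in each of the 20 other settings, with BRCA2 at 0.617 under the GC and length correction (edgeR adjusted p = 0.0011). BRCA1 was called in SIN3A knockdown (0.28 ± 0.09, edgeR adjusted p = 0.036) and lost the call in 10 of the 20 settings. It was at 0.262 without SIN3A knockdown replicate 1, 0.279 without SIN3B knockdown replicate 3, and 0.323, 0.258 and 0.263 without control replicates 1, 2 and 3 (edgeR adjusted p of 0.0567, 0.0564, 0.0536, 0.124 and 0.119). Upper-quartile factors, library totals only and limma on both FPKM scales also lost it (adjusted p of 0.0657 to 0.117).

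**Figure D4:**
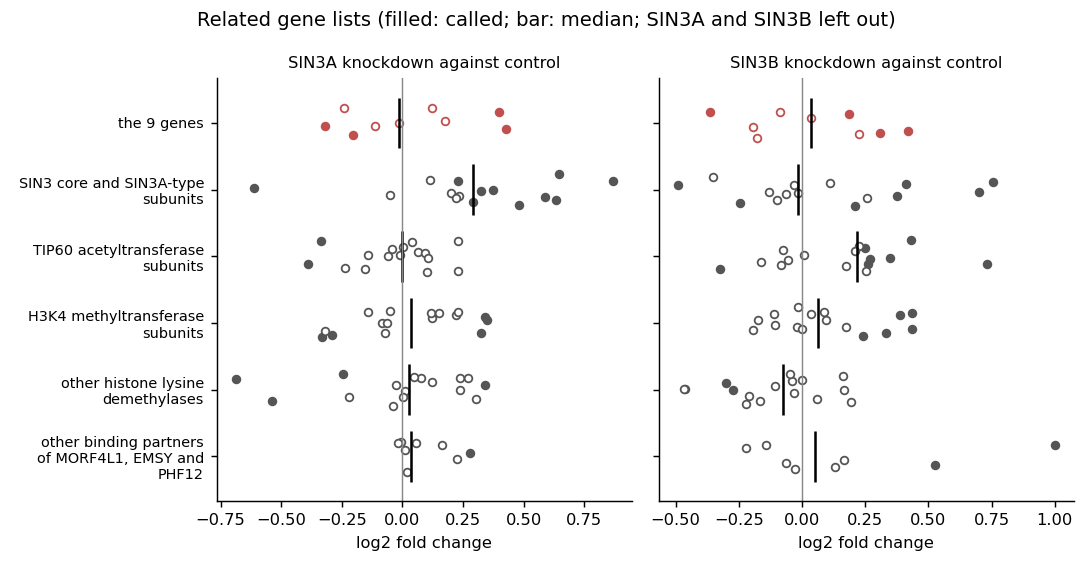
Log2 fold changes (x axes) of the 9 genes and of 5 related lists in SIN3A knockdown against control (left) and SIN3B knockdown against control (right), 1 mark per gene, filled where edgeR adjusted p was under 0.05, with bars for the list medians and without SIN3A and SIN3B. The TIP60 subunits have a median of -0.00 in SIN3A knockdown and 0.22 in SIN3B knockdown.

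Genes with the most similar course over the 9 libraries were looked up for the 3 members with the lowest adjusted p against control, by Pearson correlation of log2 CPM among 10366 genes above 3 log2 CPM. These correlations are descriptions over 9 libraries that share the same 3 groups. Most like MORF4L1 were CALM2, a calmodulin gene (r = 0.986), ATL2 (0.981) and PPIL1 (0.976). Most like KDM5B were TNKS1BP1, a tankyrase-binding protein (r = 0.985), UNC119 (0.979) and CYBC1 (0.978). UNC119 was at 79.4, 44.0 and 56.7 CPM on average in SIN3A knockdown, SIN3B knockdown and control cells. It shares this order with KDM5B because it was picked by that correlation. Most like EMSY were LMF2 (r = 0.964), TAF1, a TFIID subunit (0.959), and ARHGAP29 (0.957).

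**Figure D5:**
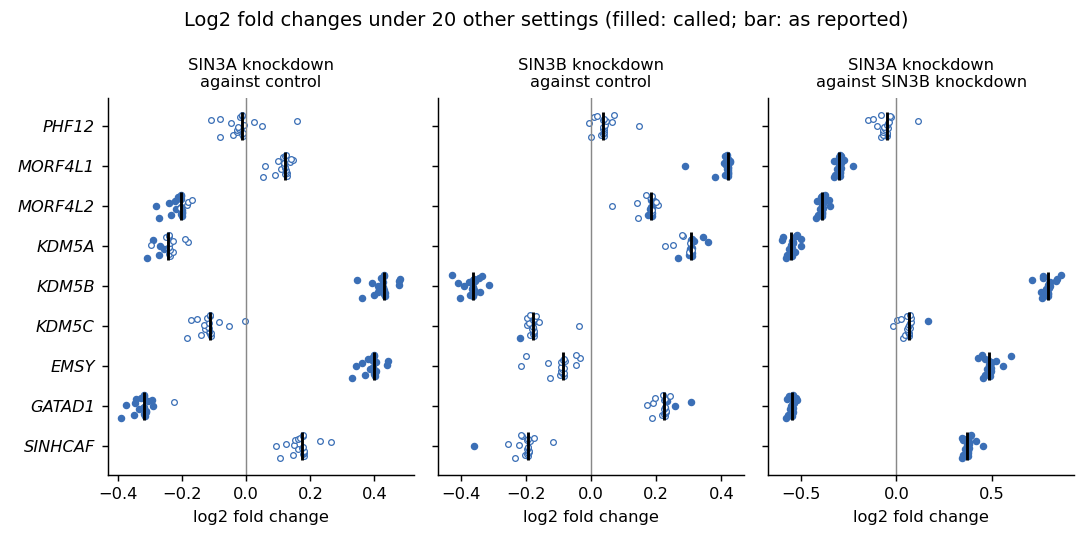
Log2 fold changes (x axes) of the 9 genes in each comparison under 20 other settings (points, filled where adjusted p was under 0.05) beside the reported value (black bars). In SIN3A against SIN3B knockdown 7 genes are filled in all settings, KDM5C is filled in 1 and PHF12 in 0, whereas against control MORF4L2, KDM5A, GATAD1, KDM5C and SINHCAF are filled in some settings and open in others of the same comparison.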

How the data were processed

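Per the labels, total RNA was made into poly-A selected, stranded libraries. Per the submitters' processing notes, reads were processed with Trimmomatic 0.36, HISAT2 2.1.0 and HTSeq on GRCh38; the annotation release, the strand setting and the treatment of multi-mapping reads are not given in the sources used here. The deposited counts per Ensembl gene were used as they are; 98% or more of the nonzero counts in each library were multiples of 4. The FPKM values that the authors deposited, whose gene length is not stated, served only as an alternative within a gene.

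Groups came from the sample titles; the treatment text of every sample names the control siRNA. Counts were fitted in edgeR 4.0.16 (R 4.3.3) with TMM factors, filterByExpr (minimum count 10, minimum total 15) and the quasi-likelihood F-test, in 1 fit of 9 libraries with 6 residual degrees of freedom, two-sided, adjusted over 16686 genes. Log2 CPM for correlations used a prior count of 2. Alternatives were other scaling, no filter, DESeq2 1.42.0, limma 3.58.1 on log2(FPKM + 1) and log2(FPKM + 0.1), counts divided by 4, fits of 6 libraries, a replicate block, offsets for GC content and exon length, and leaving out each library. The fit was tested on simulated data. Gene models and 3′ UTRs came from GENCODE 29, promoters from RefSeq, and figures from matplotlib 3.10.9.

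The 9 members and the lists were chosen with earlier results of these data known. The named genes are the members, the siRNA targets, up to 3 called genes per list and comparison with control, and the 3 genes most like each of 3 members.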

Additional observations from a re-analysis of the deposited data

How the results depend on the processing

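In SIN3A against SIN3B knockdown, 7 of the 9 genes were called in the main setting and 7 or 8 when 1 library was left out, with 3313 to 4738 genes called in all. Against control, 4 were called in SIN3A knockdown (2 to 4 with 1 library left out, 2597 to 3948 genes in all) and 4 in SIN3B knockdown (2 to 6, and 2601 to 4718 genes in all). With limma on log2(FPKM + 1) and on log2(FPKM + 0.1), 2 of the 9 were called in SIN3B knockdown. Over 20 settings and 3 comparisons, 22 calls of the 9 genes were lost and 15 gained, and the cause was not tested. PHF12, called in no setting, changed sign in SIN3A knockdown with the GC content and exon length offsets (0.048) and without control replicate 3 (0.023) or SIN3A knockdown replicate 1 (0.158), and was at -0.111 without SIN3A knockdown replicate 2. In SIN3B knockdown it did so with upper-quartile factors (-0.0011) and without control replicate 2 (-0.0062), and between the knockdowns without SIN3A knockdown replicate 1 (0.113; -0.149 without replicate 2). KDM5C was at -0.015 between the knockdowns with the offsets. Scaling moved the median of all genes by at most 0.069. Deviations from the group means correlated at -0.23 to 0.08 over 9 same-numbered pairs and at -0.19 to 0.28 over the other pairs. Such values from groups of 3 libraries cannot decide whether same-numbered libraries were prepared together. With the replicate block the calls of the 9 genes were 4, 4 and 7, and 3429, 3616 and 4236 genes were called in all; of the other named genes BRCA1 alone lost its call (0.278, edgeR adjusted p = 0.0568). With 3 libraries a group, the SE of a log2 fold change was 0.06 to 0.11 for the 9 genes, which limits what could be told apart.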
